A study of Homo sapiens with 32 samples.

Results

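The 6 GATA transcription factors, GATA1 to GATA6, were followed through RNA-seq of Ewing sarcoma cells. They were taken by symbol from the count tables, which list 28278 genes, and by Ensembl gene from the knockdown table, which lists 60199, and all 6 were found in both. The family was picked because GATA4 was silent in control cells and on after KO of EZH2 or SUZ12. Hence the levels in those 2 KO groups against their controls are a description. Where a count of members called in them appears, it stands beside the share of all genes called and nothing is read from it.

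GATA factors bind the DNA sequence GATA through paired zinc fingers and switch on lineage genes together with partner proteins. GATA1, GATA2 and GATA3 act mainly in blood cells: GATA1 in erythroid cells and megakaryocytes, GATA2 in haematopoietic progenitors, mast cells and endothelium, and GATA3 in T lymphocytes and, outside blood, in sympathetic neurons and several epithelia. GATA4, GATA5 and GATA6 act mainly in heart and endoderm. In many cells that do not use them, GATA genes carry the H3K27me3 mark, which is set by Polycomb Repressive Complex 2 (PRC2). EZH2 is a catalytic subunit of PRC2 and SUZ12 a core subunit without which the complex falls apart.

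A673 is an Ewing sarcoma line driven by the EWS::FLI1 fusion. Experiments 1 and 2 each had 2 libraries of a clone with an inducible Cas9 (genotype iCas9, WT clone) and 1 of the parental line, and experiment 3 had 1 of each, which gives 8 control libraries in 3 experiments. All KO cells were clones derived from the iCas9 clone. They were 5 STAG2 KO libraries (2 in experiment 1 and 3 in experiment 2), 3 of EZH2 KO and 3 of SUZ12 KO (experiment 2) and 3 of STAG1 KO (experiment 3). STAG1 and STAG2 are the alternative subunits of cohesin, the complex that folds chromatin into loops. In experiment 4, 3 libraries of A673 cells transfected with an siRNA against STAG2 stood beside 3 of control cells. The isogenic pairs had 1 library per arm: SK-N-MC, which has STAG2, with a STAG2 KO, and A4573, which lacks STAG2, with a STAG2 knock-in (KI). Both pairs are labelled iCas9. By the labels, libraries of a KO group come from separate clones, so the spread between them includes differences between clones. STAG2 KO libraries numbered 5 occur in experiments 1 and 2, and whether they are the same clone could not be settled. For the repeated WT clone and knockdown libraries nothing in the labels says whether the cultures were separate, and p-values then measure only the spread between these libraries.

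The 22 A673 count libraries held 15734628 to 20663679 counts and the 4 libraries of the pairs 29322507 to 32261248. Of 15 Ewing sarcoma markers, 14 had a mean of at least 1 CPM (the usual count relative to library size, scaled by TMM) in the A673 controls, and the same number did so in SK-N-MC and in A4573. The exception was CD99, which had 0 counts in every library of these groups. That value is given as deposited, and whether CD99 mRNA was absent from the cells was not tested. EZH2 mRNA was 28.4 to 55.3 CPM in EZH2 KO against 172 to 194 CPM in the controls of experiment 2, and SUZ12 mRNA was 11.3 to 20.6 CPM in SUZ12 KO against 60.3 to 67.1 CPM. STAG2 mRNA was 42.4 to 69.4 CPM in 4 STAG2 KO libraries and 184 CPM in the fifth, numbered 24 in experiment 1, against 256 to 361 CPM in the 6 STAG2-proficient libraries of experiments 1 and 2. STAG1 mRNA was 15.1 and 33.2 CPM in STAG1 KO libraries 5 and 7, but 61.5 CPM in library 1, where the controls had 57.8 and 69.6 CPM. STAG1 mRNA was not called different between these groups (log2 fold change −0.80, SE 0.51, edgeR adjusted p = 0.376), so it gives no check of library 1. Clone 5 of experiment 2 stood farthest from the other STAG2 KO clones of its experiment, and the STAG2 KO results that rest on it are given without it as well. Without it 14.9% of all genes were called higher in STAG2 KO and 14.7% lower.

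GATA2 lies at chr3:128479427-128493201 on the minus strand and GATA3 at chr10:8045378-8075198 on the plus strand (GRCh38). These were the members with counts in every library, and the 250 bases before the outermost start of each (RefSeq, GRCh38.p14) are shown because tests between genotypes turn on this pair. Capitals mark CG dinucleotides. The first is chr3:128493202-128493451, minus strand, and the second chr10:8045083-8045332, plus strand.

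GATA2: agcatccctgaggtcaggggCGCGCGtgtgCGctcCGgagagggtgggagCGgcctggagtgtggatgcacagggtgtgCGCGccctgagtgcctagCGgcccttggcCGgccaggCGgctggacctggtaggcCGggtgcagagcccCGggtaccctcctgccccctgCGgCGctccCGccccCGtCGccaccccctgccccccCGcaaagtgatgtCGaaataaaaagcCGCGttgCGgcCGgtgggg
GATA3: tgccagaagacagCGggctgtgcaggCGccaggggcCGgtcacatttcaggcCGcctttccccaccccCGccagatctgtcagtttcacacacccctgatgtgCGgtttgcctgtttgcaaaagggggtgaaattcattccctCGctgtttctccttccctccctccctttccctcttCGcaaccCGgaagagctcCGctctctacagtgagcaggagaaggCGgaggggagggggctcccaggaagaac

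The GATA2 window holds 24 CG dinucleotides, a number reached by 23.7% of 35116 promoter windows of this length, and the GATA3 window holds 11, reached by 50.3%. The sequence GATA is absent from both windows on either strand, while 45.6% of all windows hold it. GGAA, the core sequence of ETS factors such as FLI1, was found 0 times before GATA2 and 6 times before GATA3 with both strands counted, and 92.7% of all windows hold it at least once. Both genes have further annotated starts, whose windows differ from these. The inner GATA2 window, chr3:128488531-128488780, holds 18 CG dinucleotides and GGAA 2 times. The other GATA3 windows hold 4 to 30 CG dinucleotides and GGAA 2 times each, and some of them hold GATA. These matches describe the windows and were not tied to binding.

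In control A673 cells the GATA family was GATA2 with a little GATA3. The 8 control libraries held GATA2 at 4.55 to 29.7 CPM with a median of 8.89 CPM, and GATA3 at 0.321 to 2.69 CPM with a median of 1.21 CPM. Per kilobase of exons, which allows levels of different genes to be set side by side, the medians were 1.81 CPM for GATA2 and 0.356 CPM for GATA3. The other 4 members were at or under 3 counts in each of the 16 A673 libraries with both EZH2 and SUZ12 intact. At these depths 3 counts are taken as the floor, at or under which no level is read. GATA1 had 0 counts in all 16, GATA5 a single count in 1 library, GATA6 at most 2 counts and GATA4 at most 3.

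GATA4, the cardiac and endodermal factor at chr8:11676959-11760002, showed the pattern by which the family was chosen. The 3 controls of experiment 2 had 0, 1 and 0 counts of GATA4. The 3 EZH2 KO clones had 1156, 566 and 1196 counts (55.7, 30.9 and 57.1 CPM), and the 3 SUZ12 KO clones 1454, 1748 and 1345 counts (71.0, 79.3 and 72.7 CPM). All 6 KO clones were thus far above all controls. Against the floor of 3 counts per control library, GATA4 was at least 249-fold higher in EZH2 KO (47.9 ± 14.7 CPM, SD, n = 3) and at least 386-fold higher in SUZ12 KO (74.3 ± 4.41 CPM, SD, n = 3). The 5 STAG2 KO libraries held 0, 0, 0, 2 and 0 counts of GATA4, which is at the floor like the controls.

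GATA3 differed most between the PRC2 KO clones. Its counts were 6, 5 and 30 in the controls of experiment 2 (0.342, 0.321 and 1.67 CPM). In EZH2 KO the clones had 44, 174 and 251 counts (2.12, 9.50 and 12 CPM), and in SUZ12 KO 552, 748 and 555 counts (26.9, 33.9 and 30.0 CPM). The 3 groups did not overlap, and EZH2 KO clone 1 lay just above the parental library. Fitted log2 fold changes against the controls were 3.39 (SE 0.861) in EZH2 KO and 5.32 (SE 0.913) in SUZ12 KO.

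GATA2 was about as high in both PRC2 KO groups. The controls of experiment 2 had 8.49, 7.96 and 29.7 CPM, the highest being the parental library. EZH2 KO clones had 50.6, 34.4 and 54.8 CPM and SUZ12 KO clones 33.9, 52.8 and 57.9 CPM, all above the controls. The log2 fold changes were 1.68 (SE 0.476) and 1.71 (SE 0.477). Without the parental library they were 2.57 (SE 0.369) and 2.61 (SE 0.369).

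The remaining members stayed near the floor even in the EZH2 KO and SUZ12 KO clones. GATA6, which acts in endoderm and heart, had 0, 0 and 2 counts in the controls, 5, 3 and 13 in EZH2 KO and 13, 9 and 11 in SUZ12 KO. Against the floor its mean was at least 1.78-fold higher in EZH2 KO, with clone 2 itself at 3 counts, and at least 2.83-fold higher in SUZ12 KO. GATA5 reached 7 counts and GATA1 reached 4 counts, both in SUZ12 KO clone 2. The genes that passed the filter on low counts were GATA2, GATA3, GATA4 and GATA6. GATA4 and GATA6 could pass it only through the KO groups. The fit put all 4 past its threshold in each KO, where 12% of all genes tested were called higher in EZH2 KO and 14.7% in SUZ12 KO. Leaving out either WT clone library of experiment 2 brought the count to 1 in EZH2 KO and 2 in SUZ12 KO, and leaving out EZH2 KO clone 3 or clone 1 brought it to 1 or 2 in EZH2 KO. The family was selected on these contrasts, and nothing is read from that count.

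**Figure D1:**
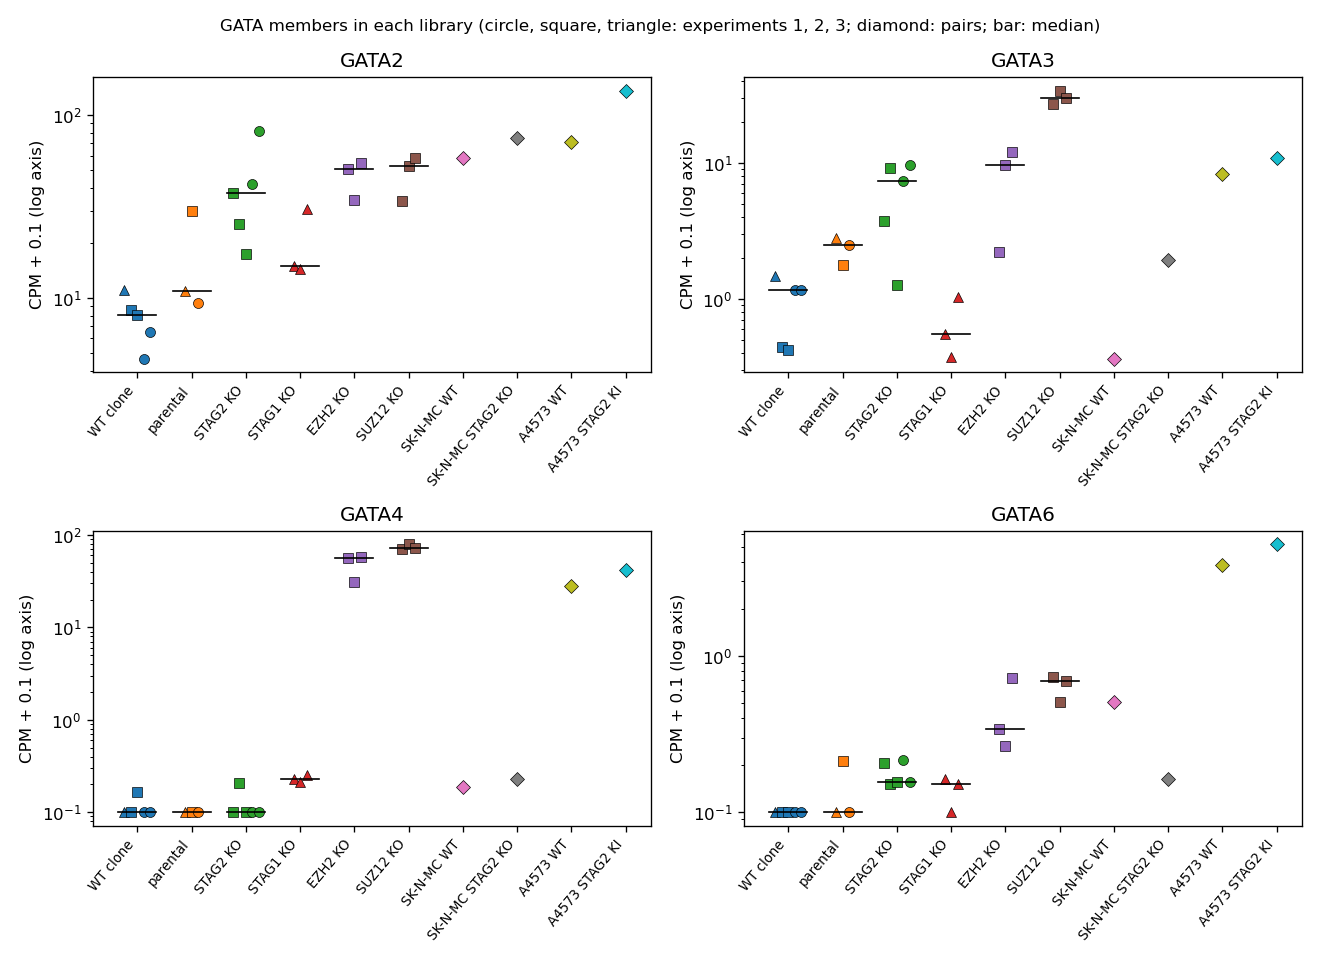
Each point is 1 library, with CPM + 0.1 on a log axis for GATA2, GATA3, GATA4 and GATA6, groups along the horizontal axis, marker shape for the experiment and a bar for the median. GATA4 leaves the floor in EZH2 KO, SUZ12 KO and both A4573 libraries, and GATA3 is lowest in STAG1 KO, SK-N-MC WT and part of the WT clone libraries.

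The choice of the family did not use the difference between the PRC2 KO groups, though GATA4 and GATA6 entered the fit only through them. GATA3 was 1.93 lower on the log2 scale in EZH2 KO than in SUZ12 KO (log2 fold change −1.93, SE 0.757, 95% interval −3.41 to −0.44, unadjusted p = 0.0262 by edgeR's quasi-likelihood test), and the clones of the groups did not overlap. It did not pass the correction over all genes (edgeR adjusted p = 0.999), and 0.00661% of genes, which is 1 gene (EZH2 itself), were called in this comparison. For GATA2 the difference was −0.04 (95% interval −0.94 to 0.86). Of these 2 members 0 were called by edgeR or by DESeq2, and 1 had an unadjusted p under 0.05 with edgeR, as 4.16% of all genes did. As values with no test, GATA4 differed by −0.62 (SE 0.279), with the clones of the groups apart, and GATA6 by −0.64 (SE 0.657).

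The make-up of the family changed with these levels. As a share of the summed GATA counts per kilobase of exons, GATA2 made up 91.8% to 94.5% in the controls of experiment 2, 40.3% to 43.7% in EZH2 KO and 22.2% to 31.7% in SUZ12 KO. GATA4 made up 41.4% to 53.3% in EZH2 KO and 44% to 51.5% in SUZ12 KO. GATA3 made up 2.66% to 16.6% in EZH2 KO and 23.7% to 25.7% in SUZ12 KO. In both KO groups GATA4 therefore reached the order of GATA2, and in SUZ12 KO clones GATA3 did too (GATA2 over GATA3 per kilobase 0.869, 1.07 and 1.33).

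**Figure D2:**
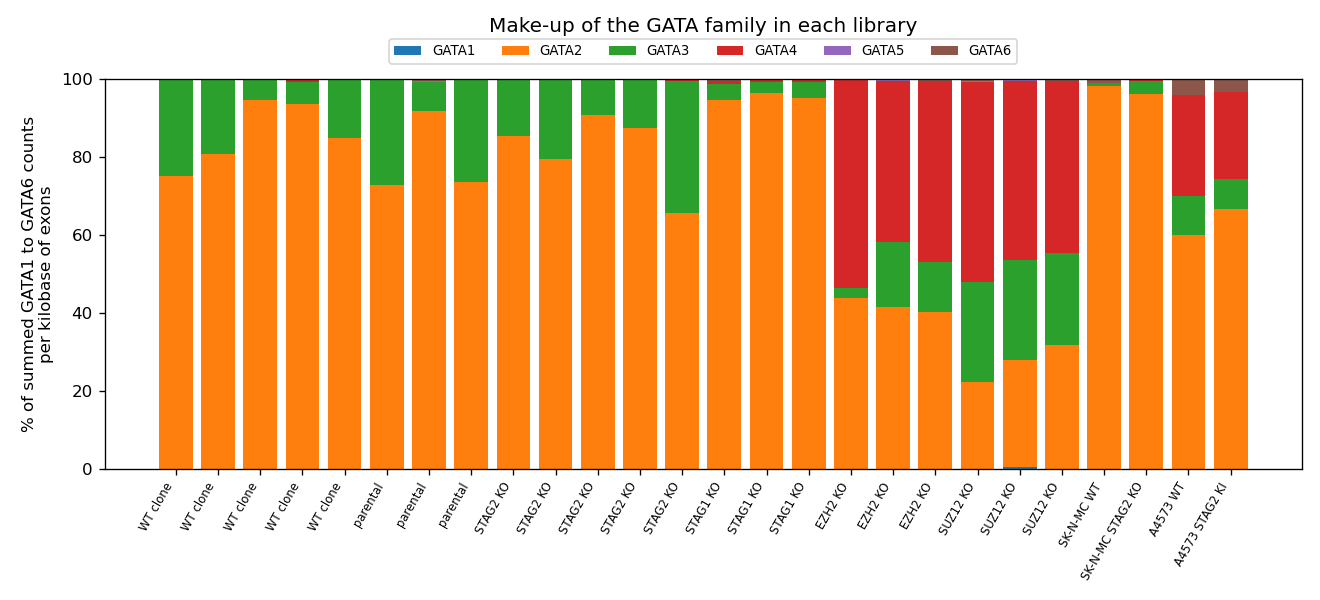
Stacked bars give each member's percentage of the summed GATA1 to GATA6 counts per kilobase of exons in every count library. GATA2 fills most of each bar except in EZH2 KO and SUZ12 KO, where GATA4 takes 41.4% to 53.3%, and A4573 also holds GATA4.

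Loss of STAG2, the comparison the study was built on, was followed by higher GATA2 and GATA3. In experiment 1 GATA2 was 4.55 and 6.41 CPM in the WT clone and 9.28 CPM in the parental line, against 41.8 and 82.2 CPM in STAG2 KO libraries 5 and 24. In experiment 2 it was 8.49, 7.96 and 29.7 CPM against 37.6, 25.2 and 17.3 CPM in clones 3, 5 and 2. The groups were apart in experiment 1, and in experiment 2 the parental library lay above clones 5 and 2. Over both experiments GATA2 rose by 1.94 on the log2 scale (SE 0.535, edgeR adjusted p = 0.037). In experiment 1 alone the log2 fold change was 3.20 (SE 0.39, edgeR adjusted p = 0.00813) and in experiment 2 alone 0.84 (SE 0.554, edgeR adjusted p = 0.388). The difference between the experiments was 2.34 (SE 0.78), unadjusted p = 0.0129 and adjusted p = 0.097 by edgeR.

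The GATA2 call rested on few libraries. It was kept in 3 of the 11 fits that left out 1 library, with adjusted p from 0.00278 to 0.0963 by edgeR and log2 fold changes from 1.52 to 2.47. Without the parental library of experiment 2 the value was 2.47 (edgeR adjusted p = 0.00278), and without STAG2 KO library 24, the one with 184 CPM of STAG2, it was 1.52 (edgeR adjusted p = 0.0668). Leaving out clone 5 of experiment 2 gave 2.12 (edgeR adjusted p = 0.0158). The other fits in which the call was lost left out STAG2 KO library 5 of experiment 1, clone 3 of experiment 2, any of the 4 WT clone libraries of experiments 1 and 2, or the parental library of experiment 1. It was lost too when the pair of WT clone libraries of experiment 1, which differed little beyond sampling noise, was summed into 1 (1.73, edgeR adjusted p = 0.0892).

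GATA3 had a similar fitted rise in both experiments, though its STAG2 KO libraries spread from 1.17 to 9.56 CPM. In experiment 1 it was 1.05, 1.06 and 2.40 CPM in the controls and 7.30 and 9.56 CPM in STAG2 KO. In experiment 2 it was 0.342, 0.321 and 1.67 CPM in the controls and 3.64, 9.03 and 1.17 CPM in clones 3, 5 and 2. Clone 2 thus fell between the WT clone and the parental line, and the other 4 STAG2 KO libraries lay above all 6 controls. The log2 fold change over both experiments was 2.57 (SE 0.578, edgeR adjusted p = 0.0144). It was 2.48 (SE 0.441, edgeR adjusted p = 0.0174) in experiment 1 alone and 2.62 (SE 0.934, edgeR adjusted p = 0.153) in experiment 2 alone. It passed in each of the 11 fits without 1 library (2.11 to 3.07), the lowest being that without clone 5 of experiment 2 (edgeR adjusted p = 0.0096).

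These were the 2 members of 6 with enough counts to be tested in STAG2 KO, and both were called higher, where 6.67% of all genes tested were called higher and 5.76% lower. GATA4 was at the floor in all 11 libraries and GATA6 had 1 or 2 counts in each STAG2 KO library and at most 2 in the controls. The EZH2 KO, SUZ12 KO and STAG2 KO comparisons of experiment 2 share their 3 control libraries. With those controls, GATA3 was 4.61 ± 4.02 CPM in STAG2 KO, 7.87 ± 5.13 CPM in EZH2 KO and 30.3 ± 3.51 CPM in SUZ12 KO (SD, n = 3 each). GATA2 was 26.7 ± 10.2, 46.6 ± 10.8 and 48.2 ± 12.7 CPM in the same order.

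GATA2-AS1 is a transcript on the opposite strand that starts within GATA2, 4.0 kb from the outermost GATA2 start. GATA2-AS1 was likewise higher in STAG2 KO (log2 fold change 2.50, SE 0.546, edgeR adjusted p = 0.0125), and at 2.61 (SE 0.567, edgeR adjusted p = 0.0065) without clone 5 of experiment 2. All 5 STAG2 KO libraries, at 6.49 to 23.5 CPM, lay above the 6 controls, at 0.954 to 5.97 CPM. The genes share 78 bases of exons, or 1.6% of those of GATA2, and in these libraries without strand reads from that stretch cannot be told apart. The counts of GATA2-AS1 were 15.5% to 37.9% of those of GATA2 in STAG2 KO and 14.9% to 26.9% in the 6 controls. GATA3-AS1, within GATA3 on the opposite strand, shares no exon base with it. It had at most 4 counts in STAG2 KO, 5, 5 and 13 in EZH2 KO and 43, 77 and 22 in SUZ12 KO, in the order of the GATA3 levels of these groups.

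Loss of STAG1 went with lower GATA3 values, though neither member passed the test. GATA3 was 2.69 and 1.36 CPM in the parental line and WT clone of experiment 3, and 0.445, 0.274 and 0.929 CPM in the STAG1 KO clones, all under both controls. The log2 fold change was −1.86 (SE 0.576, 95% interval −2.99 to −0.73, unadjusted p = 0.0175 and adjusted p = 0.117 by edgeR). It was −1.30 without the parental library and −2.26 without the WT clone library. Over all experiments the WT clone, from which the KO clones derive, had GATA3 at 0.321 to 1.36 CPM. This range holds the STAG1 KO values of 0.445 and 0.929 CPM. GATA2 was 10.8 and 11 CPM in the controls and 14.8, 14.3 and 30.6 CPM in STAG1 KO, all above them (log2 fold change 0.87, SE 0.368, edgeR adjusted p = 0.211). Of the 2 tested members 0 were called by edgeR and 0 by DESeq2, and 1 had an unadjusted p under 0.05 with edgeR. Over all genes 5.27% were called and 24.9% had an unadjusted p under 0.05. GATA4 had 2, 2 and 3 counts in STAG1 KO and 0 in both controls, at or under the floor throughout.

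Set against each other, GATA3 responses to STAG2 KO and to STAG1 KO differed by 4.37 on the log2 scale (SE 1.0, edgeR adjusted p = 0.0192), and GATA2 responses by 1.02 (SE 0.88, 95% interval −0.70 to 2.75, edgeR adjusted p = 0.617). In this comparison 6.11% of genes were called. The GATA3 call was lost without the parental library of experiment 3 (3.82, edgeR adjusted p = 0.147), without STAG1 KO library 1, whose STAG1 mRNA was not lower (4.25, edgeR adjusted p = 0.056), or without STAG1 KO library 5 (4.05, edgeR adjusted p = 0.0622). Its direction held in all 16 fits without 1 library (3.82 to 4.98).

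The 2 kinds of control also differed in these genes. GATA3 was lower in the WT clone than in the parental line, 0.827 ± 0.469 CPM (SD, n = 5) against 2.25 ± 0.522 CPM (SD, n = 3), with no overlap (log2 fold change −1.43, SE 0.284, edgeR adjusted p = 0.032). Without the parental library of experiment 2 it was −1.09 (edgeR adjusted p = 0.0974), and the call was lost too without any of the 4 WT clone libraries of experiments 1 and 2 (edgeR adjusted p from 0.0691 to 0.12). GATA2 differed by −1.0 (SE 0.287, edgeR adjusted p = 0.118), and by −0.41 (SE 0.224, edgeR adjusted p = 0.426) without the parental library of experiment 2, which moved the value by more than 1.5 times. The background of calls was 2.72%. Since the KO clones derive from the iCas9 clone, STAG2 KO was also set against the WT clone alone, which gave 2.53 (SE 0.432, edgeR adjusted p = 0.00902) for GATA2 and 3.42 (SE 0.61, edgeR adjusted p = 0.0105) for GATA3.

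Transient knockdown of STAG2 gave small differences. STAG2 itself was at 144 to 180 normalized reads after siSTAG2 and 992 to 1090 in control cells. GATA2 was 37.2, 34.4 and 64.6 normalized reads in controls and 53.3, 54.7 and 66.7 after knockdown, and GATA3 was 16.2, 18.7 and 17.7 against 30.0, 24.1 and 13.5. Both overlapped between the groups. On the log2(value + 1) scale the differences were 0.40 (SE 0.213, 95% interval −0.02 to 0.82, limma adjusted p = 0.196) for GATA2 and 0.28 (SE 0.302, 95% interval −0.32 to 0.87, limma adjusted p = 0.576) for GATA3. With limma 0 of these 2 were called and 0 had an unadjusted p under 0.05, with edgeR on recovered reads 0 were called, and 20.5% of all genes were called with limma. Without the control library 3 the GATA2 difference was 0.68 (limma adjusted p = 0.0298). GATA1, GATA4, GATA5 and GATA6 are listed at 0 in all 6 libraries.

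**Figure D3:**
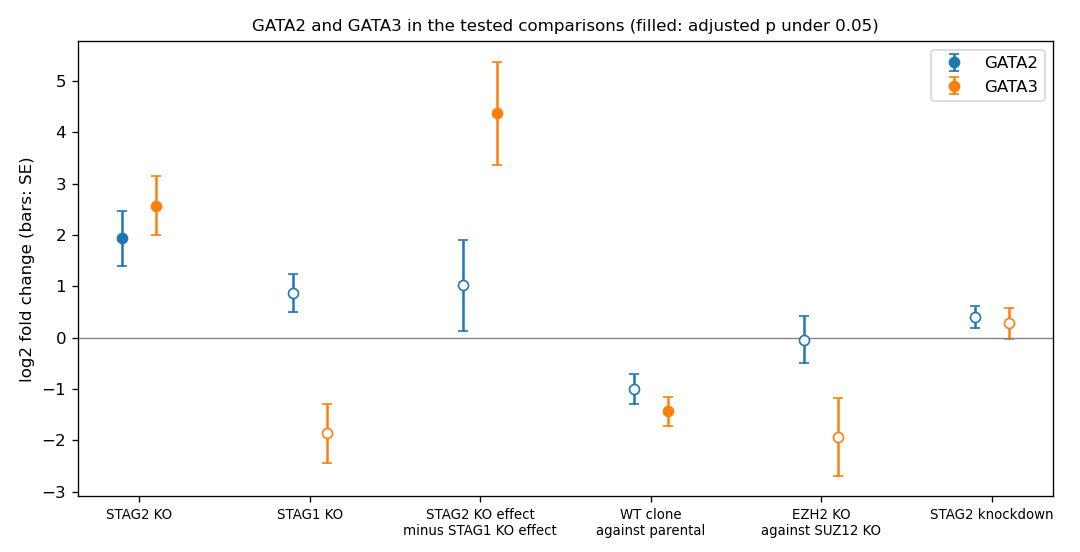
Points are log2 fold changes of GATA2 and GATA3 with their SE in the 6 tested comparisons, filled where the adjusted p was under 0.05. GATA3 reads 2.57 in STAG2 KO and −1.86 in STAG1 KO, and both genes lie within 0.5 of 0 in the STAG2 knockdown.

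Of the other Ewing sarcoma lines, A4573 carried further GATA genes and SK-N-MC, like control A673, held mainly GATA2. A4573 expressed 4 members: GATA2 at 71.1 CPM in WT and 136 CPM in STAG2 KI, GATA4 at 27.7 and 41.7 CPM, GATA3 at 8.17 and 10.8 CPM and GATA6 at 3.74 and 5.09 CPM. GATA4 had 880 and 1335 counts there, with EZH2 mRNA at 113 CPM in WT and 42.0 CPM in KI. SK-N-MC expressed GATA2, at 57.9 CPM in WT and 75.2 CPM in STAG2 KO, which made up 98.3% and 96.2% of its GATA counts per kilobase of exons, while GATA4 had 3 and 4 counts. The levels of all 26 count libraries were scaled together, but the A673 libraries and the pairs come from different tables, so differences between A673 and the other lines cannot be told apart from differences between these tables. Among the A673 groups the medians of GATA2 per kilobase of exons ran from 1.62 CPM in the WT clone through 2.21 CPM in the parental line, 3.01 CPM in STAG1 KO, 7.64 CPM in STAG2 KO and 10.3 CPM in EZH2 KO to 10.7 CPM in SUZ12 KO. Each group overlapped the next in this order. Above them stood SK-N-MC WT at 11.8 CPM, A4573 WT at 14.5 CPM, SK-N-MC STAG2 KO at 15.3 CPM and A4573 STAG2 KI at 27.7 CPM, each a single library.

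GATA2 and GATA3 differed in opposite directions in the 2 pairs, with no replicates to test it. In SK-N-MC the ratio of cells without to cells with STAG2 was 1.30 for GATA2 (95% interval 1.22 to 1.38) and 6.92 for GATA3 (3.40 to 15.9, from 57 and 9 counts). In A4573 the same ratio was 0.521 for GATA2 (0.495 to 0.549), 0.759 for GATA3 (0.644 to 0.894), 0.664 for GATA4 (0.609 to 0.723) and 0.735 for GATA6 (0.576 to 0.937). So GATA2 and GATA3 were higher without STAG2 in SK-N-MC and lower without it in A4573. GATA6 in SK-N-MC had 14 counts with STAG2 and 2 without, a ratio of 0.156 (0.0172 to 0.680) that rests on a library at the floor. Intervals are exact (Clopper-Pearson, on the split of the counts between both libraries) and cover counting error only. Past 2-fold in either direction were GATA3 and GATA6 of 3 members with enough counts in SK-N-MC and 0 of 4 in A4573, where 21.6% and 21.8% of all genes were past it. STAG2 mRNA was 179 CPM in SK-N-MC STAG2 KO and 281 CPM in WT, and in A4573 it was 32.3 CPM in WT and 85.2 CPM in STAG2 KI.

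**Figure D4:**
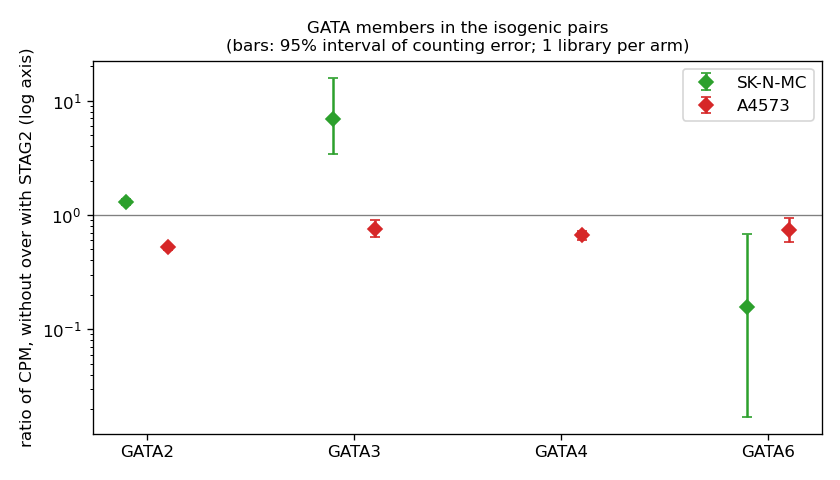
Ratios of CPM in cells without STAG2 over cells with STAG2 are drawn on a log axis for the members with at least 10 counts in the pair, with 95% intervals of counting error and 1 library per arm. The A4573 ratios lie between 0.521 and 0.759, and the SK-N-MC ratios range from 0.156 for GATA6 to 6.92 for GATA3.

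Proteins that act with GATA factors and genes of the lineages in which these factors act are described next, by counts of genes called with edgeR (adjusted p under 0.05). EZH2 KO and SUZ12 KO are the contrasts that chose the family, and their counts are a description to be read beside 12% and 3.69% of all genes called higher and lower in EZH2 KO and 14.7% and 5.87% in SUZ12 KO. From a list of 28 partners, in EZH2 KO 7 of 22 tested were called higher and 2 lower, and in SUZ12 KO 8 of 22 were called higher and 2 lower. TAL1, a haematopoietic factor that binds DNA beside GATA1 and GATA2, was at 5.49 ± 1.48 CPM in EZH2 KO and 11.6 ± 0.211 CPM in SUZ12 KO (SD, n = 3), at least 28.5-fold and 60.2-fold above the floor of controls with at most 1 count. TBX20, a cardiac T-box factor that binds GATA4, had 0 counts in the controls and reached 2.29 and 2.23 CPM, at least 11.9-fold and 11.6-fold higher. TBX5, another such factor, was at 6.98 ± 3.09 CPM in SUZ12 KO, at least 36.3-fold higher. ZFPM2, a cofactor of GATA4 also known as FOG2, rose from 2.05 to 8.49 and 9.45 CPM, by 2.13 (SE 0.462) and 2.28 (SE 0.463) on the log2 scale. The median log2 fold change of the 22 was −0.08 in EZH2 KO and 0.11 in SUZ12 KO, beside 0.04 and 0.01 over all genes, and the same with the 4 partners at the floor in controls set to their bounds. In STAG2 KO 1 of 18 tested partners was called, LDB2, which was higher. Without clone 5 of experiment 2 it was 3 higher and 4 lower of 18.

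Of 25 cardiac genes 4 of 11 tested were called higher in EZH2 KO and 0 lower, and in SUZ12 KO 4 were higher and 1 lower (ACTN2). The 4 were TNNI3, TBX5, TBX20 and GJA5 in both. Of these, TBX5, TBX20 and GJA5 had at most 2 counts in each control library. They entered the test through the KO groups and could be called higher or not at all. TNNI3, a cardiac troponin, rose from 3.13 CPM to 14.1 and 16.4 CPM, and GJA5, a cardiac gap junction protein, reached 3.28 ± 0.64 CPM in SUZ12 KO from 0 counts, at least 17-fold higher. The summed CPM of the 25 genes was 112 to 122 in the controls, 113 to 120 in EZH2 KO and 112 to 138 in SUZ12 KO. Of 25 endoderm genes, 14 were tested, and 3 were called higher and 4 lower in EZH2 KO and 3 higher and 7 lower in SUZ12 KO. SOX17, an endoderm factor with 0 counts in the controls, reached 4.05 ± 2.51 CPM in SUZ12 KO, at least 21.0-fold higher. SOX17 and CDX2, both at the floor in the controls, could be called higher or not at all. FOXA1 and HHEX, factors of the same list, were called lower in SUZ12 KO. FOXA1 fell there from 8.36 to 1.11 CPM (log2 fold change −2.84, SE 0.685). The matrix and adaptor genes LAMB1, DAB2 and COL4A2, and CER1, an inhibitor of Nodal and BMP, were lower in both KO groups, and DAB2 fell by 1.58 and 2.10 on the log2 scale.

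Blood lists held few measured genes. Of 26 erythroid and megakaryocytic genes 6 were tested, with 2 higher in EZH2 KO (EPOR and TAL1) and 3 higher in SUZ12 KO (these and ITGA2B). EPOR, the erythropoietin receptor, rose from 9.64 CPM to 43.6 and 47.7 CPM (log2 fold changes 2.26, SE 0.267, and 2.37, SE 0.268). Of these 26 genes, 13 were at 0 in all EZH2 KO libraries and 14 in all SUZ12 KO libraries. Of 17 T lymphocyte genes 5 were tested, of which 3 were called higher in EZH2 KO and 4 in SUZ12 KO. LEF1, a mediator of Wnt signalling also used by T cells, rose from 0.21 CPM to 18.3 and 19.5 CPM (log2 fold changes 6.46, SE 1.16, and 6.54, SE 1.16). Of 16 endothelial and mast cell genes 10 were tested, and 4 were called higher (PECAM1, NOS3, KIT and TPSAB1) and 1 lower (EMCN) in both KO groups.

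In the sympathetic and neural crest list, 3 of 9 tested genes were called higher and 3 lower in each KO group. TFAP2B, a neural crest factor, rose from 1.93 CPM to 27.7 and 25.9 CPM, and GAP43, a growth cone protein, fell from 97.8 CPM to 13.2 and 15.1 CPM. Among the 9 other proteins with GATA-type zinc fingers, 1 was called lower in EZH2 KO (MTA1) and 0 were called in SUZ12 KO by edgeR, where 1 had an unadjusted p under 0.05 and DESeq2 called 1. In STAG2 KO 1 of these 9 was called, TRPS1, which was higher. Whether any of these lists follows the GATA levels was not tested.

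**Figure D5:**
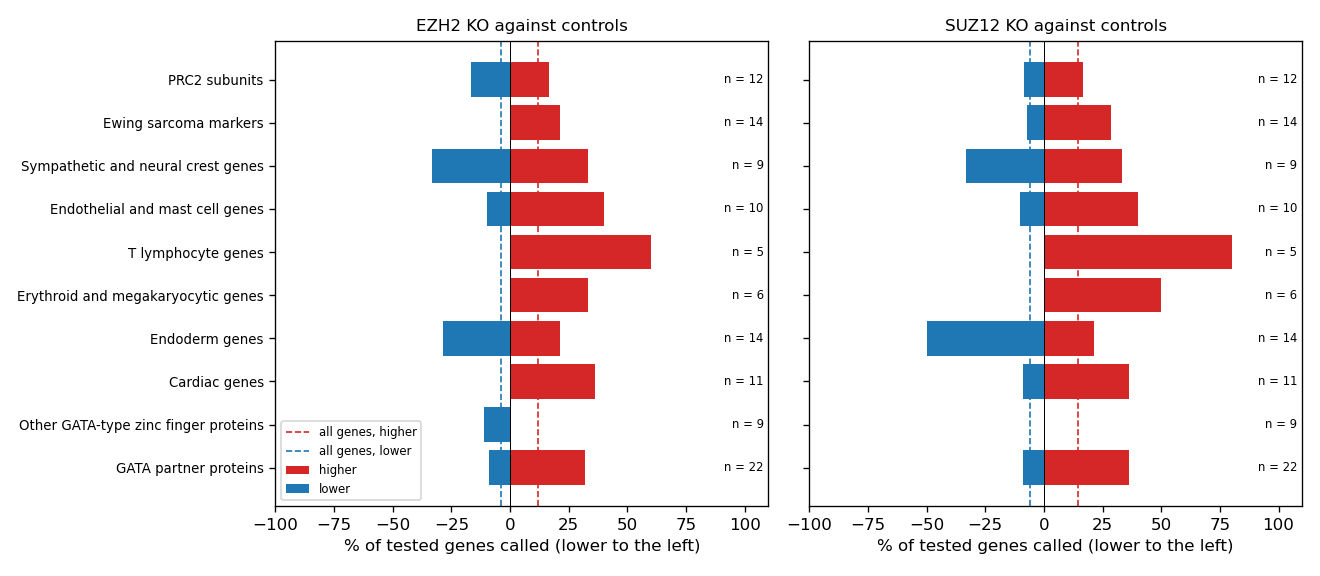
For each list with at least 5 tested genes, bars show the percentage called higher (right) and lower (left) in EZH2 KO and SUZ12 KO, with the number tested beside them and dashed lines for all genes (12% and 3.69% in EZH2 KO, 14.7% and 5.87% in SUZ12 KO). GATA partners have 7 and 8 of 22 called higher, and endoderm genes have 4 and 7 of 14 called lower.

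In the STAG2 KO comparison, where 6.67% of all genes were called higher and 5.76% lower, the lineage lists were as follows. Of the cardiac genes 0 of 8 were called by edgeR, while 3 had an unadjusted p under 0.05 and DESeq2 called 3. Of the erythroid and megakaryocytic genes 0 of 3 were called by edgeR or by DESeq2, and 0 had an unadjusted p under 0.05. Of the endoderm genes 2 of 11 were lower (COL4A2 and DKK1), with COL4A2 at 277 ± 51.1 CPM (SD, n = 5) against 464 ± 64.6 CPM (SD, n = 6). GAP43 fell by 2.81 (SE 0.584, edgeR adjusted p = 0.00979) and VCAM1, an endothelial adhesion protein, fell by 2.67 (SE 0.663, edgeR adjusted p = 0.0231). TFAP2A, another neural crest factor, rose by 1.03 (SE 0.109, edgeR adjusted p = 0.000238). KIT, the stem cell factor receptor of mast cells and progenitors, and BCL11B, a T cell factor that Ewing sarcoma cells also express, were the others called, both higher. Without clone 5 of experiment 2 all of these genes were still called in the same direction, and calls were added among cardiac genes (2 higher and 2 lower of 8), erythroid and megakaryocytic genes (ITGA2B, lower, of 4) and sympathetic genes (ISL1, a neuronal and cardiac factor, higher).

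In STAG1 KO, calls by edgeR among the lineage genes were CXCR4 of the endoderm list, ITGA2B of the megakaryocytic genes and BCL11B, all lower, at 1 of 12, 1 of 3 and 1 of 3 tested, beside 5.27% of all genes called. Each of these calls was lost when either control library of experiment 3 was left out, since no gene was then called (0 genes by edgeR). ITGA2B, a platelet integrin, was at 1.48 ± 0.158 CPM (SD, n = 3) against 5.07 ± 0.535 CPM (SD, n = 2), a log2 fold change of −1.77 (SE 0.264, edgeR adjusted p = 0.0271). Of the GATA partners 0 of 18 were called by edgeR, with 5 at an unadjusted p under 0.05 and 3 called by DESeq2. GATA2-AS1 was not called by edgeR and was called by DESeq2, at 5.17 ± 2.25 CPM in STAG1 KO and 1.95 ± 0.288 CPM in the controls.

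The Ewing sarcoma markers and the PRC2 subunits stood beside these levels as follows. Of 14 tested Ewing sarcoma markers 3 were called higher and 0 lower in EZH2 KO, 4 higher and 1 lower in SUZ12 KO, and 3 higher and 4 lower in STAG2 KO. Over all genes 12% were called higher and 3.69% lower in EZH2 KO, and 14.7% and 5.87% in SUZ12 KO. In STAG2 KO the shares were 6.67% and 5.76%. NKX2-2, a target of EWS::FLI1, was at 32.6 CPM in controls, 103 CPM in EZH2 KO and 127 CPM in SUZ12 KO. PPP1R1A, a phosphatase inhibitor, fell by 1.32 in STAG2 KO (SE 0.183, edgeR adjusted p = 0.00105). In experiment 2 the summed CPM of the markers was 3910 to 4120 in the controls, 3910 to 4480 in EZH2 KO, 3970 to 4340 in SUZ12 KO and 3200 to 3250 in STAG2 KO. Of 12 PRC2 subunits and cofactors 3 were called in STAG2 KO, with RBBP7 and MTF2 higher and PHF19 lower (log2 fold change −0.61, SE 0.0862, edgeR adjusted p = 0.00117). Without clone 5 of experiment 2 there were 4 higher and 1 lower, EZH2 and SUZ12 being the genes added. In that fit 14.9% of all genes were called higher and 14.7% lower. JARID2 and EPOP, accessory subunits of PRC2, were called higher in EZH2 KO and SUZ12 KO. Their part in the GATA levels was not tested.

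Genes beside the members were read from the annotation within 250 kb of each start. Around GATA4, 4 neighbours had at least 10 counts in a library of experiment 2. FAM167A, NEIL2, FDFT1 and CTSB gave 0 calls by edgeR or DESeq2 in EZH2 KO, with 1 at an unadjusted p under 0.05, and NEIL2, a DNA repair glycosylase 92.7 kb away, was the 1 called by edgeR in SUZ12 KO (log2 fold change 0.50, SE 0.153, from 22.5 to 30.3 CPM). FAM167A had log2 fold changes of 1.28 (SE 0.846) and 0.44 (SE 0.842), with no call. Around GATA2 the neighbours called were 1 of 3 in EZH2 KO, SUZ12 KO and STAG2 KO, in each case GATA2-AS1 (1.60, 1.63 and 2.50 on the log2 scale), while RPN1 and RAB7A were not called. Around GATA3, GATA3-AS1 was called in EZH2 KO and SUZ12 KO, and TAF3 was not. Without clone 5 of experiment 2, STAG2 KO also called TAF3 (higher) beside GATA3, CTSB (lower) beside GATA4 and LAMA5 and NTSR1 (both lower) beside GATA5. In that fit HDAC6, TIMM17B and GRIPAP1 beside GATA1 were called as well, all lower. GATA5 had 7 measured neighbours and 0 calls by edgeR in these 3 comparisons (unadjusted p under 0.05 for 0, 1 and 1, and DESeq2 called 0, 0 and 1, in EZH2 KO, SUZ12 KO and STAG2 KO). GATA1 had 14 with 3 called in EZH2 KO, 3 in SUZ12 KO and 1 in STAG2 KO (KCND1, log2 fold change 1.49, SE 0.395, edgeR adjusted p = 0.0312). GATA6 had 0 with enough counts. Shares of all genes called higher and lower were 12% and 3.69% in EZH2 KO and 14.7% and 5.87% in SUZ12 KO. In STAG2 KO they were 6.67% and 5.76%, and 14.9% and 14.7% without clone 5 of experiment 2.

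Over the 12 libraries of experiment 2, the genes whose log2(CPM + 1) followed a member most closely were taken from 13434 genes whose mean reached 1 CPM. For GATA4 they were RORB (Pearson r = 0.998), STOX2 (0.997) and HOXA7 (0.996). RORB, an orphan nuclear receptor, was at 0.12 CPM in controls, 0.263 CPM in STAG2 KO, 60.5 CPM in EZH2 KO and 76.9 CPM in SUZ12 KO. For GATA3 they were NIPAL1 (0.964), JPH4 (0.958) and DUSP9 (0.956), and DUSP9, a phosphatase of MAP kinases, went from 0.911 CPM in controls to 3.13, 8.96 and 22.3 CPM in the same order of groups. For GATA2 they were GALNT14 (0.951), MAPKAPK3 (0.946) and ARID5A (0.942). The 12 libraries form 4 groups of 1 experiment, and the correlations are given as a description.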

How the data were processed

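RNA-seq was analysed in 32 libraries of 3 cell lines. The authors made non-directional oligo-dT libraries, aligned single-end reads to hg38 with TopHat2 2.0.0 and Bowtie 0.12.7 (submitters' processing notes) and deposited counts per gene symbol for 26 libraries. The table of the knockdown experiment, also deposited by the authors, holds a signal: reads divided by 1 factor per library. Of its values 100% came out as whole reads within 0.001 of a read (6852340 to 8184632 per library). How the factors were set is not given in the sources used here. No alignment was repeated.

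Counts were fitted in R 4.3.3 with edgeR 4.0.16 (TMM, filterByExpr by group, quasi-likelihood test, Benjamini-Hochberg over all genes, threshold 0.05). STAG2 KO used experiments 1 and 2 with an experiment term, the PRC2 KO comparisons used 12 libraries in a single fit, and STAG1 KO used experiment 3. The knockdown used limma 3.58.1 on log2(value + 1) for genes with a mean of at least 10. This scale understates changes of low genes. Pairs were compared as ratios of TMM-scaled CPM for genes with at least 10 counts. Levels are CPM scaled over the 26 libraries. A group with at most 3 counts in each library was at the floor, and folds against it use 3 counts in the control library with the highest floor. DESeq2 1.42.0, other filters, controls and pseudocounts, a replicate block and leaving out each library were alternatives. The fits were tested on simulated data.

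Sequences are from RefSeq, coordinates from GENCODE on GRCh38, and 4 of 6 members had a promoter entry. In the knockdown, the replicate numbers did not pair the libraries (correlations of deviations 0.0257, 0.0372 and 0.00402). The 2 WT clone libraries of experiment 1 differed little beyond sampling noise (mean chi-square 1.31 per gene, against 8.82 in the next closest pair of a group) and were kept as 2, with their sum as an alternative. The table columns of STAG2 KO in experiment 1 and of STAG1 KO could not be matched to single clones and were used as groups. The members and lists were chosen with earlier results of these data known. Genes were named by rule: of each list the up to 4 called genes with the largest change, apart in all libraries and with a mean of at least 1 CPM, the 3 genes most like a member, neighbours within 250 kb, and the targeted genes. Other list genes were named to complete small counts, after their values were seen.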

Additional observations from a re-analysis of the deposited data

Results flagged for a closer look

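GATA2 in the parental library of experiment 2 (29.7 CPM) stood far from the other STAG2-proficient libraries. Its gap to the nearest library was 0.812 of the range over the 6 of experiments 1 and 2, and 0.744 of the range over all 8 A673 controls. The 2 groups share libraries, and 6 groups were examined. The limit used is Dixon's at 95%, which chance passes in about 1 in 20 groups.

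The effect of STAG2 KO on GATA3 differed from that of STAG1 KO by 4.37 on the log2 scale (edgeR adjusted p = 0.0192), from 2.57 in STAG2 KO and −1.86 in STAG1 KO.

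GATA2 differed in direction between the isogenic pairs, at 0.36 in SK-N-MC and −0.89 in A4573 (log2, cells without minus cells with STAG2). GATA3 did so as well, at 2.52 and −0.35. Each arm had 1 library, and the difference between the pairs was not tested.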

How the results depend on the processing

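In STAG2 KO the number of GATA members called was 2, but 0 in experiment 2 alone and 1 when the WT clone libraries in experiment 1 were summed (GATA2 then had 1.73, edgeR adjusted p = 0.0892), and 1 to 2 when a library was left out. Leaving out a library gave 0 to 1 members called for STAG2 KO against STAG1 KO, 0 to 2 for WT clone against parental and 0 to 1 in the knockdown. It gave 1 to 4 in EZH2 KO and 2 to 4 in SUZ12 KO, where 12% and 14.7% of all genes were called higher. These 2 contrasts chose the family, and nothing is read from their counts. WT clone against parental gave 2 members with DESeq2 (GATA2 adjusted p = 0.00957) and 2 without the filter. The GATA2 difference of EZH2 KO and SUZ12 KO changed sign in 3 fits without a library (−0.236 to 0.136). With a replicate block the knockdown gave 0.40 for GATA2 (limma adjusted p = 0.13) and 0.28 for GATA3 (limma adjusted p = 0.562), which changed no call of a member, and 2881 genes in place of 2476. The cause of each change was not tested.

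Over all genes, calls were 757 with edgeR and 1914 with DESeq2 in STAG1 KO (0 without the parental library, 0 without the WT clone library, 1310 without STAG1 KO library 1, 264 without library 5 and 326 without library 7), 1 and 20 for EZH2 KO against SUZ12 KO (5 without the filter), 898 and 1546 for STAG2 KO against STAG1 KO, and 385 and 630 for WT clone against parental (741 without the filter). STAG2 KO gave 1687 calls, 3663 in experiment 1 alone, 494 in experiment 2 alone, 4048 without clone 5 of experiment 2 and 1053 without the first WT clone library of experiment 2. EZH2 KO gave 2377 calls, and 1441 with the WT clone as the only control. At these depths GATA4 and GATA6 in A673 cells with both EZH2 and SUZ12 intact, and GATA1 and GATA5 outside SUZ12 KO, stayed at the floor.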
